A study of Homo sapiens with 6 samples.

Results

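The COP9 signalosome is a multi-subunit protease of the nucleus and cytoplasm, and its 10 subunit genes, GPS1, COPS2, COPS3, COPS4, COPS5, COPS6, COPS7A, COPS7B, COPS8 and COPS9, are described here across 6 RNA-seq libraries of HGC-27, a line of human gastric cancer cells kept in culture. The genes were taken by symbol from a table of 62703 genes, and all 10 passed the filter on low counts, as did 15693 genes in all. The group was chosen because COPS8 fell in this same comparison while belonging to one complex with the others, so the levels of the subunits in the comparison are a description and carry no test. Control cells (shControl, 3 libraries, labelled wild type) carried a control shRNA, and knockdown cells (shGXYLT2, 3 libraries) carried an shRNA against GXYLT2, a xylosyltransferase that extends the O-glucose of EGF repeats. Cells of both groups grew in RPMI 1640 with 10% fetal bovine serum. The knockdown cells are described as one stably transfected strain, and the sources used here do not say whether it was a clone or a pool, nor whether the replicates were separate cultures, so that the spread behind each p-value is that of these libraries alone and may be technical.

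The COP9 signalosome removes the ubiquitin-like protein NEDD8 from cullins, the scaffolds of the largest family of ubiquitin ligases. Removal of NEDD8 switches a cullin ligase off and lets CAND1 exchange its substrate receptor, after which the NEDD8 enzymes can switch it on again. COPS5 holds the metalloprotease site, COPS6 is its inactive MPN-domain partner, COPS9 is a small acidic subunit, and GPS1, COPS2, COPS3, COPS4, COPS7A or COPS7B, and COPS8 carry PCI domains, which pack against one another to form the scaffold. The lid of the proteasome and the translation factor eIF3 are built on the same plan of PCI and MPN subunits.

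The targeted gene was lower in every knockdown library. GXYLT2 stood at 20.7, 22.8 and 20.2 CPM (estimated counts scaled to one common library size with TMM factors) in shControl replicates 1 to 3, in that order throughout, against 5.27, 6.27 and 5.34 CPM in shGXYLT2 replicates 1, 2 and 3 (log2 fold change -1.91, SE 0.109; adjusted p = 6.3e-10 by edgeR's quasi-likelihood test with the Benjamini-Hochberg method). Library totals ran from 17291138 to 22540099 estimated counts in shControl and from 22188073 to 24898425 in shGXYLT2. The line showed little of a gastric epithelium: 5 of 7 gastric lineage markers (MUC5AC, TFF1, TFF2, GKN1 and PGC) had 0 counts in all 6 libraries, and of 5 epithelial markers EPCAM, KRT18 and KRT19 stayed under 1 CPM in all 6. CDH1 stood at 1.67 to 3.24 CPM and KRT8 at 1.24 to 2.03 CPM. The 5 epithelial markers summed to 4.28 to 5.31 CPM in shControl and 3.79 to 4.74 CPM in shGXYLT2, and the 7 gastric ones to 1.97 to 2.48 and 3.38 to 5.59 CPM, almost all of it MUC6. MUC6 was called higher in shGXYLT2 (log2 fold change 1.03, SE 0.210, edgeR adjusted p = 0.0029). Of the 4 mesenchymal markers the filament gene VIM reached 2406 to 2722 CPM and ZEB1 62.1 to 103 CPM, while the cadherin CDH2 stayed at or below 0.201 CPM. The fibronectin gene FN1 rose (38.7 ± 0.187 against 78.7 ± 2.44 TMM-scaled CPM, SD, n = 3 each; log2 fold change 1.03, adjusted p = 2.3e-09 in edgeR), and its part in the subunits' values was not tested. The marker sums, CDH1, KRT8, VIM, ZEB1 and CDH2 are CPM of the plain library totals. The 5 leukocyte markers summed to 1.55 to 1.73 CPM in shControl and 0.766 to 1.45 CPM in shGXYLT2, with CD3E at 0, and the 4 endothelial markers to at most 0.241 CPM, with PECAM1, CDH5 and KDR at 0. In bulk RNA, fewer cells with a transcript and less of it in each cell cannot be told apart.

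A stretch of the COPS8 3' UTR is shown first because it holds a word that the longest coding-transcript 3' UTRs of the other 9 subunit genes lack. The 7-base word GACTCAT had been found in an earlier search of these same data to be frequent in 3' UTRs of genes that fell, so its presence in a gene that fell is no independent evidence. In GENCODE release 29 on GRCh38, COPS8 was the one subunit gene of 10 whose longest annotated 3' UTR held the word. The lines below give 30 bases of each transcript, 5' to 3', with the word in capitals, for COPS8, for WEE1 and NFE2L2, which are described further on, and for GXYLT2 itself.
COPS8: gttagttttctagtGACTCATaaaataaga
WEE1: gggacatgctaaaaGACTCATtactactca
NFE2L2: ccctgttggtggaaGACTCATaaatcaatg
GXYLT2: tacgccagtggcctGACTCATatacaaaga
The COPS8 stretch lies on the plus strand at chr2:237097991-237098020, with the word starting at base 263 of a 3' UTR of 2724 bases. The WEE1 stretch (chr11:9588974-9589003, plus strand) and the NFE2L2 stretch (chr2:177232599-177232628, minus strand) are also in 3' UTRs, whereas that of GXYLT2 (chr3:72922205-72922234, plus strand) is in the coding sequence. Aligned on the word, the COPS8 and GXYLT2 stretches had the same letter at 2 of the 14 bases before it and at 6 of the 9 bases after it. The same counts were 2 and 2 for WEE1 and 3 and 4 for NFE2L2. In 7 related genes that hold the word and were not called, listed further on, they ran from 0 to 6 before the word and from 0 to 3 after it. The 6 before the word, in DCAF7, was above the 2 of COPS8. How many letters unrelated bases would share was not worked out, and the letters were not tested as an shRNA site.

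Searching every annotated transcript of the 10 genes on the sense strand gave the word in 3 of 7 COPS8 transcripts, of which 2 are coding, and in 2 of 10 COPS6 transcripts, neither of them coding. The other 8 subunit genes had it in none of their transcripts, although COPS2 has the longest 3' UTR of the group, 5222 bases. Among 12620 tested protein-coding genes 8.18% held the word in the 3' UTR, and among the 1818 whose 3' UTR was within 20% of the length of that of COPS8 10.8% did. Of these 196 genes of like length with the word, 46 (23.5%) were called lower in shGXYLT2 and 150 were not, against 9.31% called lower among the 1622 of like length without it and 6.84% among all tested genes. The word came from a search of these same data, so this difference is a description. These letters are a description of the annotated transcripts, and the shRNA sequence is not given in the sources used here.

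COPS8 encodes a small PCI subunit and spans bases 237085312 to 237100466 of chromosome 2 (ENSG00000198612, plus strand, GRCh38). Its level was 90.2, 90.8 and 86.9 CPM in the control libraries and 38.8, 39.6 and 39.3 CPM in the knockdown libraries, from 1570, 1549 and 1976 against 972, 973 and 875 estimated counts. Every knockdown library lay far under every control library, and the libraries within a group differed by a few percent. The group means were 89.3 ± 2.08 and 39.3 ± 0.394 CPM (SD, n = 3 each), a level 56.0% lower, with a log2 fold change of -1.19 (SE 0.0635). Leaving out each library in turn gave -1.20 to -1.17. Of the 15693 tested genes 75, COPS8 among them, had a log2 fold change at least as low.

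The 3 annotated pseudogenes of COPS8 (COPS8P1, COPS8P2 and COPS8P3) had 0 counts in all 6 libraries, as did the COPS5 pseudogenes COPS5P1 and COPS5P2. COPS8-DT, a divergent noncoding transcript on the opposite strand, shares 506 bases with the start of COPS8. It had 39, 19 and 50.4 estimated counts in shControl and 40, 34 and 39.0 in shGXYLT2, and did not pass the test (log2 fold change -0.25, SE 0.266, edgeR adjusted p = 0.62). The library kit keeps strand, but the sources used here do not say if the counts do, and without it reads of the shared bases cannot be told apart. The counts of COPS8-DT were small beside those of COPS8. The nearest annotated genes that do not overlap COPS8, AC105760.1 before it and AC107079.1 after it, had at most 1 count in any library. The nearest protein-coding gene after it, COL6A3, a collagen chain gene 223537 bases away, fell from 1.72, 0.937 and 1.14 CPM in shControl to 0.360, 0.652 and 0.539 CPM (log2 fold change -1.28, SE 0.355, edgeR adjusted p = 0.022), at 9.02 to 30 estimated counts a library. This call was lost in DESeq2 (adjusted p = 0.091) and without shControl replicate 1 (0.16), shControl replicate 3 (0.064) or shGXYLT2 replicate 1 (0.099).

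**Figure D1:**
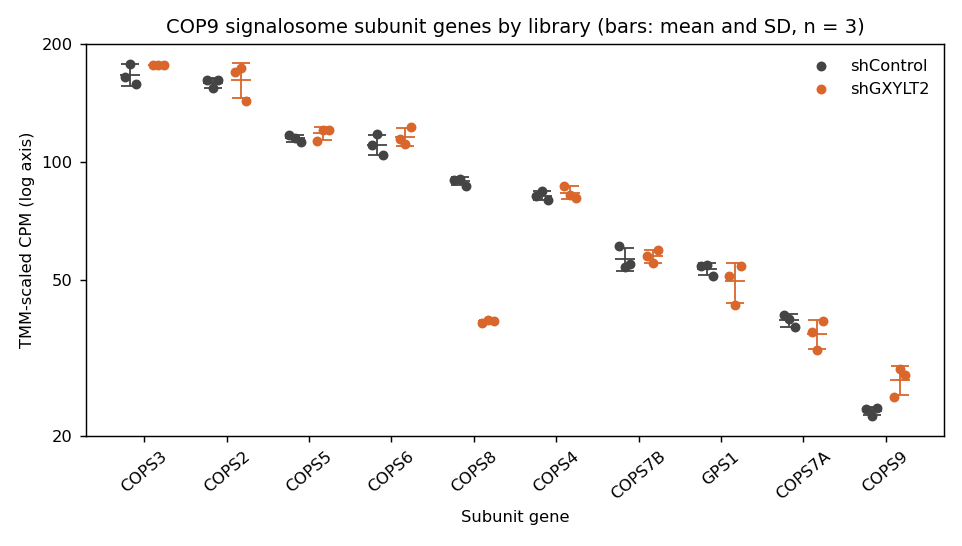
TMM-scaled CPM (log axis) of each COP9 signalosome subunit gene in the 3 shControl and 3 shGXYLT2 libraries, ordered by the shControl mean; points are libraries and bars the mean and SD. COPS8 drops from between 86.9 and 90.8 CPM to between 38.8 and 39.6 CPM, COPS9 lies slightly higher in shGXYLT2, and in the other 8 genes the groups overlap.

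Of the 10 subunit genes, 1 was called lower (COPS8) and 1 higher (COPS9) at an edgeR adjusted p below 0.05, and 8 were not called. Among all tested genes 12.2% were called, 6.84% lower and 5.31% higher, and since the subunits were chosen from this comparison their count is given beside this background without more being read from it. The libraries of the groups did not overlap for COPS8 and COPS9 and overlapped for the other 8, against a background of 30.4% of all tested genes without overlap, 14.6% higher and 15.8% lower in shGXYLT2. The median log2 fold change was 0.026 over the 10 genes, against -0.0057 over all tested genes. The 9 subunits other than COPS8 ran from -0.11 to 0.26, with SEs of at most 0.0845, and 7 of the 9 were above 0.

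Around the catalytic centre, levels differed little. COPS5, the NEDD8-cleaving metalloprotease, on the minus strand of chromosome 8, stood at 117, 115 and 112 CPM in shControl and at 113, 121 and 121 CPM in shGXYLT2 (log2 fold change 0.044, SE 0.0592). COPS6, its MPN partner (chromosome 7, plus strand, 100088954 to 100092200), stood at 110.3, 118 and 104 CPM and at 114, 111 and 123 CPM (0.069, SE 0.0649). For both genes the ranges of the groups overlapped. CSPP1, a gene on the opposite strand, shares 21358 bases of its span with COPS5, and had 538 to 869 estimated counts a library. GPS1 likewise shares 1141 bases with RFNG and COPS7B 4602 bases with PDE6D, so these 3 subunits, besides COPS8, are less certain if strand was not used in counting.

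COPS9, the small subunit, was the other gene called. It is on chromosome 2 as COPS8 is, on the minus strand (240126563 to 240136807). Its level was 23.5, 22.6 and 23.6 CPM in shControl and 25.2, 29.7 and 28.7 CPM in shGXYLT2, so every knockdown library was above every control library, the first of them by little. The means were 23.2 ± 0.585 and 27.9 ± 2.35 CPM (SD, n = 3 each), with a log2 fold change of 0.26 (SE 0.0845). The call was kept in 5 of 15 alternative analyses. It was lost without shControl replicate 1, 2 or 3 (log2 fold changes 0.27, 0.24 and 0.28) and without shGXYLT2 replicate 2 or 3 (0.21 and 0.24), and kept without shGXYLT2 replicate 1 (0.33). COPS9 is the shortest gene of the group, at 759 bases by the deposited gene length. The 851 tested protein-coding genes of up to 1000 bases had a median log2 fold change of 0.073, with 10.1% called higher and 2.94% lower, against -0.026 in the 6725 genes over 3000 bases. With gene length offsets in the fit the value of COPS9 was 0.19 and it was not called, while that of COPS8 was -1.17.

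The PCI subunits COPS2 and COPS3 were the most abundant subunit genes by CPM. COPS3 (chromosome 17, minus strand, 17246820 to 17281293) stood at 165, 178 and 158 CPM in shControl and at 177, 176 and 176 CPM in shGXYLT2 (log2 fold change 0.081, SE 0.0595). COPS2 (chromosome 15, minus strand, 49106068 to 49155661) stood at 162, 154 and 162 CPM and at 169.9, 174 and 143 CPM (0.027, SE 0.0691). In COPS2 the knockdown libraries themselves disagreed, replicate 3 being the lowest of all 6 libraries and replicates 1 and 2 the highest. Without shGXYLT2 replicate 3 its log2 fold change was 0.11 and without shGXYLT2 replicate 2 it was -0.027.

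COPS4, a PCI subunit known to help the complex sense its neddylated substrate (chromosome 4, plus strand, 83034447 to 83075818), stood at 81.8, 84.5 and 80.1 CPM in shControl and at 87.1, 82.7 and 80.9 CPM in shGXYLT2 (log2 fold change 0.026, SE 0.0620). GPS1, which encodes the subunit also called CSN1 (chromosome 17, plus strand, 82050691 to 82057470), stood at 54.3, 54.5 and 51.1 CPM and at 51.2, 43.2 and 54.5 CPM (-0.10, SE 0.0797). The lowest GPS1 value came from shGXYLT2 replicate 2, without which the log2 fold change was -0.015. Both genes had overlapping groups.

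COPS7A and COPS7B are paralogs that take the same place in the complex, 1 in each assembled particle. COPS7A (chromosome 12, plus strand, 6723741 to 6731875) stood at 40.8, 39.7 and 38.0 CPM in shControl and at 36.8, 33.3 and 39.4 CPM in shGXYLT2 (log2 fold change -0.11, SE 0.0774). COPS7B (chromosome 2, plus strand, 231781671 to 231809254) stood at 61.0, 53.9 and 55.0 CPM and at 57.7, 55.2 and 59.6 CPM (0.022, SE 0.0692). Per kilobase of deposited gene length, the level of COPS7B over that of COPS7A was 1.34, 1.21 and 1.29 in shControl and 1.40, 1.48 and 1.35 in shGXYLT2. The knockdown ratios were thus all above the control ratios (means 1.41 ± 0.0663 against 1.28 ± 0.0631, SD, n = 3 each), although the lowest knockdown ratio, 1.35, was close to the highest control ratio, 1.34.

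**Figure D2:**
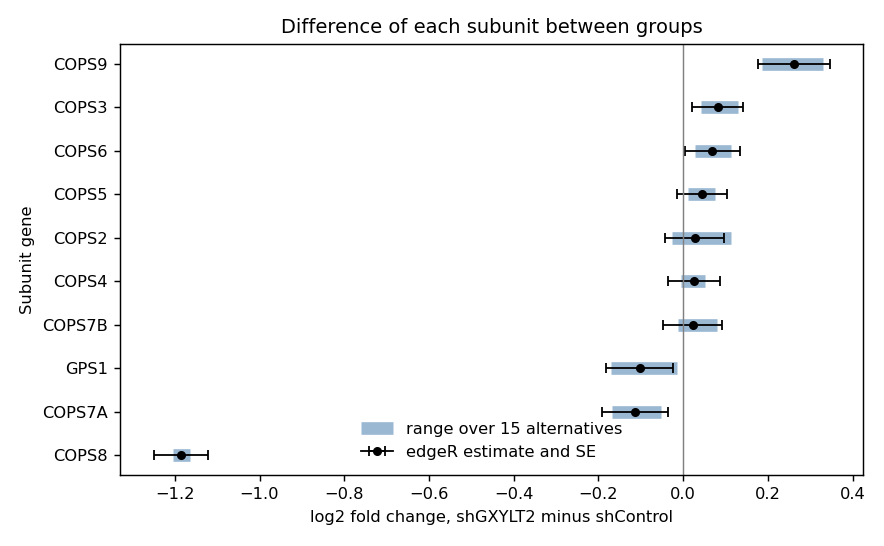
Log2 fold change (shGXYLT2 minus shControl) of each COP9 signalosome subunit gene; points and bars are the edgeR estimate and its SE, and the pale bands span 15 alternative analyses. COPS8 lies at -1.19 with a band from -1.20 to -1.16, and the other 9 genes lie between -0.11 and 0.26.

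Levels of different genes were compared per kilobase of the deposited gene length, whose definition is not given, so that the order depends on that column. In shControl the subunits formed a high set and a low set. COPS3 (92.1 ± 5.70 CPM per kb), COPS5 (88.6 ± 1.86), COPS6 (78.9 ± 4.78) and COPS2 (78.2 ± 2.23, SD, n = 3 each) were the highest. COPS4 was between, at 48.3 ± 1.29 CPM per kb, and COPS9 (30.6 ± 0.771), COPS7B (27.6 ± 1.87), COPS8 (26.0 ± 0.606), GPS1 (23.4 ± 0.837) and COPS7A (21.6 ± 0.785, SD, n = 3 each) followed. Neighbours whose libraries overlapped in shControl were COPS3 and COPS5, COPS6 and COPS2, COPS9 and COPS7B, and COPS7B and COPS8. Although the proteins join in one complex, their transcripts in control cells thus ran from 21.6 to 92.1 CPM per kb.

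COPS8 ranked 8 of 10 on this scale in shControl and 10 of 10 in shGXYLT2, where its 11.4 ± 0.114 CPM per kb lay apart from the next gene, COPS7A, at 19.9 ± 1.69 CPM per kb (SD, n = 3 each). Its share of the summed per-kilobase level of the 10 subunits was 5.04%, 5.04% and 5.05% in the control libraries against 2.19%, 2.22% and 2.20% in the knockdown libraries. The ratio of the mean shares was 0.437 ± 0.00366 (SD carried over from both groups), and it was 0.454 when the gene lengths were not used. Counting alone (1 over the root of the counts) gives COPS8 a CV of up to 3.38% in a library. The SD of 0.00366, from 3 libraries a group, therefore understates the uncertainty. The gap between groups was far wider than the spread within either. The share of COPS9 went from 5.94% ± 0.271 to 7.08% ± 0.581, and that of COPS3 from 17.9% ± 0.772 to 18.8% ± 0.0818 (SD, n = 3 each).

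Set against each partner in the same library, COPS8 was lower in shGXYLT2 whichever subunit served as the reference. The group was chosen for the fall of COPS8, so these ratios restate that fall and are no further evidence of it. The per-kilobase level of COPS8 was 0.293 ± 0.00409 of that of the protease subunit COPS5 in shControl and 0.125 ± 0.00345 in shGXYLT2, 57.3% lower. The drop was smallest against COPS7A (1.20 ± 0.0234 to 0.576 ± 0.0531, 52.2% lower) and largest against COPS9 (0.849 ± 0.0380 to 0.312 ± 0.0243, SD, n = 3 each, 63.2% lower). In control cells COPS8 was more abundant than GPS1 and COPS7A per kilobase, and in knockdown cells it was at 0.529 ± 0.0688 of GPS1 (SD, n = 3). Summed over the 9 other subunits, levels were 784 to 820.2 CPM in shControl and 826 to 833 CPM in shGXYLT2, so that the knockdown libraries lay a little above the control ones.

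**Figure D3:**
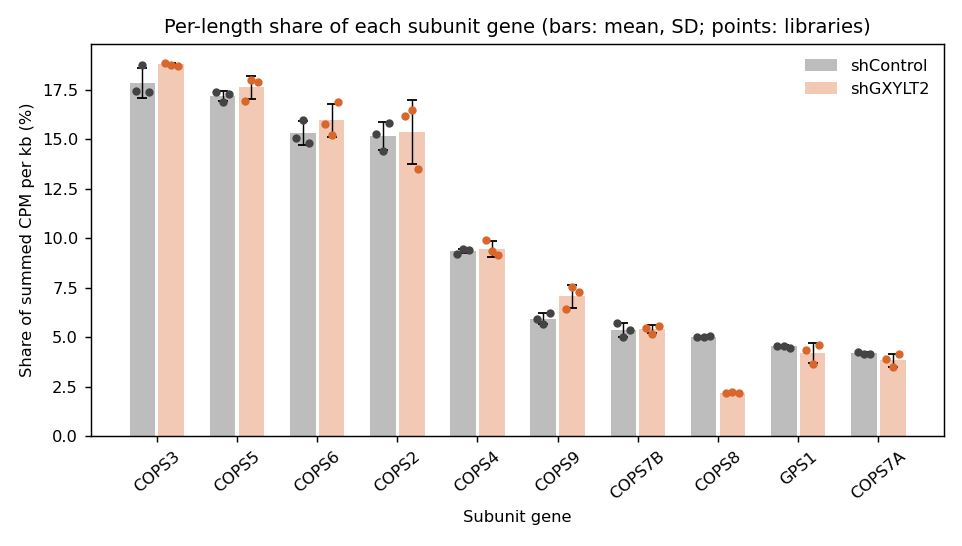
Share of each subunit gene in the summed CPM per kilobase of the 10 COP9 signalosome subunits; bars are group means with the SD, points are the 3 libraries of a group. The share of COPS8 goes from 5.04% to 2.20%, and the other 9 subunits keep their order between groups.

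The genes whose levels followed COPS8 most closely over the 6 libraries, by Pearson correlation of log2 CPM among 9570 other protein-coding genes, were DKK1, APCDD1, GPNMB, MAP1A and GFOD1 (r from 0.998 for GFOD1 to 0.9998 for DKK1). DKK1 encodes a secreted Wnt antagonist, and its mean was 34.4 ± 1.25 CPM in control and 14.7 ± 0.231 CPM in knockdown libraries (SD, n = 3 each). The word GACTCAT was in the 3' UTR of none of these 5. The libraries fall into the 2 groups, so this likeness mostly restates the gap between them. Of the other subunits, COPS7A (r = 0.61) and GPS1 (r = 0.47) had positive values and the remaining 7 negative ones, down to -0.86 for COPS9. After the group means were removed, the closest genes were ACP1, TLK2, NCAPH, FECH and GPR89A, of which GPR89A (log2 fold change -0.46) holds 1 copy of the word, and among the subunits COPS3 (r = 0.76), COPS5 (r = 0.69) and COPS6 (r = 0.57) came nearest. With 6 libraries, and totals that differ between groups, these values describe the table and no more.

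The wider NEDD8 and cullin cycle was read from 5 gene lists with 65 tested genes, of which 3 rose and 4 fell. At an edgeR adjusted p below 0.05, 10.8% were called, against 12.2% of all tested genes. Of the 7 calls, 6 were among the 12 tested substrates of the last list (50%). The remaining call, ELOB, was among 27 adaptors and substrate receptors, and the other lists of the cycle had 0. The median log2 fold change of these 65 genes was -0.0085, next to -0.0057 for all tested genes. Lists for 2 complexes of related build, the proteasome lid and eIF3, add 17 tested genes, of which 1 rose and 0 fell, for 82 related genes in all. The scaffolds came first: of 8 tested cullins 0 were called in edgeR or DESeq2, and 0 had an unadjusted edgeR p below 0.05. The share of all tested genes below that unadjusted p is not given here, so such counts in this and later lists are a description. CUL1, the scaffold of the SCF ligases, stood at 213, 209 and 204 CPM in shControl and at 217, 230.1 and 198 CPM in shGXYLT2. CUL3, which works with BTB-domain receptors, had means of 149 ± 3.90 and 146 ± 11.3 CPM (SD, n = 3 each). Neither had groups apart (edgeR adjusted p = 0.72 and 0.85). Of the 8 cullins 2, CUL4A (log2 fold change -0.13) and CUL4B (-0.12), had groups apart and lower. Among all tested genes 15.8% did, and these 2 were named after their values were seen. The median log2 fold change of the 8 cullins was -0.024.

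Of 12 tested genes for attaching NEDD8, 0 were called in edgeR or DESeq2 and 2 had an unadjusted edgeR p below 0.05. NAE1, a subunit of the NEDD8-activating enzyme, stood at 172, 169 and 166 CPM in shControl and at 169, 184 and 144 CPM in shGXYLT2 (log2 fold change -0.028, edgeR adjusted p = 0.86). DCUN1D5, which helps the transfer of NEDD8, had means of 90.0 ± 3.10 and 92.3 ± 5.49 CPM (SD, n = 3 each), a log2 fold change of 0.037 (adjusted p = 0.78 in edgeR). Neither gene was apart between groups. In the list for NEDD8 removal and cullin exchange 0 of 6 were called in edgeR or DESeq2, with 0 at an unadjusted p below 0.05. CAND1, the exchange factor that binds cullins free of NEDD8, stood at 202, 199.6 and 199 CPM and at 203, 205 and 173 CPM (-0.046, edgeR adjusted p = 0.72), and the ubiquitin protease USP15, a partner of the COP9 signalosome, had means of 75.3 ± 4.72 and 76.9 ± 7.70 CPM (SD, n = 3 each). In COPS2, NAE1 and CAND1 alike the lowest value of all 6 libraries was that of shGXYLT2 replicate 3.

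Among 27 tested adaptors and substrate receptors of cullin ligases 1 rose and 0 fell. In 10 of the 27 the unadjusted edgeR p was below 0.05. The share of all tested genes at that level is not given here, so nothing is read from the 10. The groups did not overlap for 6 higher and 4 lower genes of the 27, against 14.6% and 15.8% of all tested genes. ELOB, the elongin B adaptor of CUL2 and CUL5 ligases, stood at 43.3, 41.5 and 46.0 CPM in shControl and at 49.0, 51.8 and 58.7 CPM in shGXYLT2 (log2 fold change 0.28, SE 0.0767, edgeR adjusted p = 0.020), higher in 3 of 3 libraries. Its adjusted p was 0.088 without shControl replicate 1, 0.11 without shControl replicate 2 and 0.087 with gene length offsets, and ranged from 0.0027 to 0.11 over 15 alternatives. Without shGXYLT2 replicate 3 the list held 2 calls, 1 in each direction, ELOB higher and DCAF7 lower. With gene length offsets DCAF7 was called lower too.

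The last list of the cycle holds transcripts of proteins that cullin ligases mark for destruction. Of 12 tested substrates 2 rose and 4 fell, with a median log2 fold change of -0.14. Among all tested genes 5.31% were higher and 6.84% lower, and the list was drawn up with earlier results of these data known, so its count is a description. Of these, NFKBIA, the inhibitor that holds NF-kB in the cytoplasm, rose from 22.3, 25.8 and 21.0 CPM to 37.8, 34.8 and 34.9 CPM (log2 fold change 0.64, SE 0.0859, edgeR adjusted p = 4.5e-05). CDKN1B, the CDK inhibitor p27, rose by 0.19 on the log2 scale (77.9, 76.3 and 82.7 against 91.0, 88.0 and 91.8 CPM; SE 0.0619, edgeR adjusted p = 0.0494). The call was lost in 9 of 15 alternatives, among them those without shControl replicate 1 (0.21), shControl replicate 2 (0.199), shControl replicate 3 (0.079) or shGXYLT2 replicate 1 (0.13). With gene length offsets the log2 fold change of CDKN1B, 897 bases by the deposited length, was 0.13 (edgeR adjusted p = 0.17). DESeq2 (adjusted p = 0.0505) and limma-voom (0.055) did not call it either. The proteins' levels depend on destruction as well, which RNA does not measure.

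WEE1, the kinase that restrains entry into mitosis, fell from 70.2, 71.9 and 72.3 CPM to 46.4, 46.6 and 45.8 CPM (log2 fold change -0.63, SE 0.0631, edgeR adjusted p = 1.4e-06), and its libraries were as tight within a group as those of COPS8. JUN, a subunit of the AP-1 transcription factor, fell from 13.7, 14.8 and 13.6 CPM to 9.43, 8.02 and 8.76 CPM (-0.68, SE 0.107, edgeR adjusted p = 2.8e-04). MYC, which drives cell growth as a transcription factor, fell from 263, 277 and 262 CPM to 213, 191 and 233 CPM (-0.33, SE 0.0663, edgeR adjusted p = 0.0023). NFE2L2, the antioxidant regulator NRF2, which CUL3 and KEAP1 mark for destruction, fell from 111, 107 and 110.4 CPM to 92.9, 90.9 and 72.8 CPM (-0.35, SE 0.0776, edgeR adjusted p = 0.0050), with shGXYLT2 replicate 3 again the lowest. WEE1 and NFE2L2 are the fallen genes of the 82 whose 3' UTR held the word GACTCAT. Another 7 of the 82 held it and were not called: RNF7, DCUN1D1, DCUN1D3, KLHL12, DCAF7, PSMD12 and EIF3M. Their log2 fold changes ran from -0.20 (DCUN1D3) to 0.19 (RNF7). The groups did not overlap for DCAF7, which was lower (-0.15), nor for RNF7 and EIF3M (0.14), which were higher. DCAF7 and EIF3M were each called in 2 of 15 alternatives. NFE2L2 and these 7 were named after their values were seen.

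The lid of the proteasome and eIF3 hold related PCI and MPN subunits. Of 9 tested proteasome lid genes 1 rose and 0 fell, and log2 fold changes ran from -0.13 (PSMD8) to 0.32 (SEM1), with an SD over genes of 0.134. SEM1, the smallest lid subunit, stood at 64.5, 56.8 and 63.5 CPM in shControl and at 65.3, 88.3 and 76.6 CPM in shGXYLT2 (edgeR adjusted p = 0.037). That call was lost without shControl replicate 1 (0.064), shControl replicate 2 (0.15), shControl replicate 3 (0.087), shGXYLT2 replicate 2 (0.13) or shGXYLT2 replicate 3 (0.25). It was also lost in limma-voom (0.051) and with the replicate block (0.053). Over 15 alternatives the adjusted p ranged from 1.8e-04 to 0.25. Of 8 tested eIF3 genes 0 were called in edgeR or DESeq2, with 3 at an unadjusted edgeR p below 0.05; 3 were called with gene length offsets and 2 without shGXYLT2 replicate 3. Their log2 fold changes ran from -0.13 (EIF3K) to 0.15 (EIF3L), with an SD over genes of 0.105. Means were 963 ± 30.1 and 957 ± 49.7 CPM for EIF3C and 502 ± 7.22 and 466 ± 60.8 CPM for EIF3A (SD, n = 3 each), and EIF3C is uncertain because reads could be split with its near copy EIF3CL. Over the 10 COP9 signalosome genes the same SD was 0.399. It includes COPS8, the gene the group was picked for, at -1.19. The other 9 ran from -0.11 to 0.26, a range inside that of the lid.

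**Figure D4:**
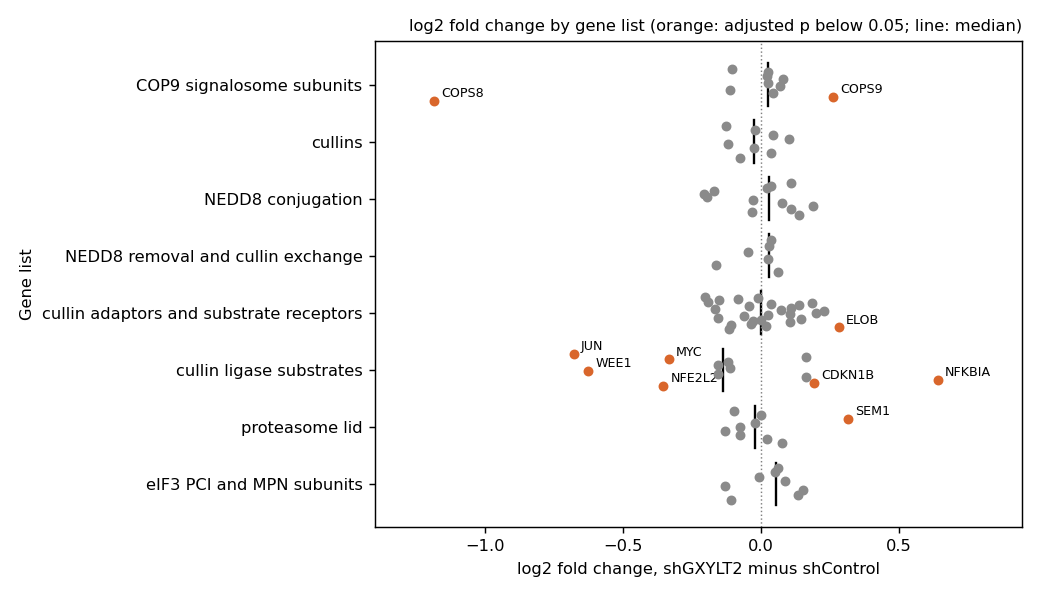
Log2 fold change (shGXYLT2 minus shControl) of each gene in the COP9 signalosome and in the 7 related lists; each point is a gene, the line is the list median, and orange points passed an edgeR adjusted p below 0.05. COPS8 lies at -1.19, below all points of the related lists, the lowest of which is JUN at -0.68.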

How the data were processed

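The members and gene lists were chosen with earlier results of these data known. Per the submitters' processing notes, fastp, HISAT2, StringTie and GRCh38.p13 were used; their roles and versions, the annotation release and the counting step were not stated there. Per the labels' protocols, TRIzol RNA went into a stranded, ligation-based messenger RNA kit. The authors deposited estimated counts per gene, not normalized (12.3% not whole), which were rounded, and gene lengths of undefined origin.

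Counts were fitted in R 4.3.3 with edgeR 4.0.16 (filterByExpr, TMM, robust quasi-likelihood, group as the only term, 6 libraries) and adjusted by Benjamini-Hochberg over 15693 genes at 0.05. SE is the log2 fold change divided by the root of F. Positions, gene types and 3' UTRs came from GENCODE 29; the longest 3' UTR of a protein-coding transcript was searched on the sense strand. The 15 alternatives included DESeq2 1.42.0 and limma 3.58.1 (voom). Gene length offsets were added after seeing the data. In simulated counts for this comparison (15438 genes tested), 198 of 200 planted changes were recovered and 18 genes without a planted change were called. The planted changes were of at least 1.5-fold in either direction, in genes above a set CPM. The recovery thus does not cover differences as small as those of COPS9 and CDKN1B.

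Library pairs of a group differed by a chi-square of 1.97 to 11.1 per degree of freedom, so none was taken as a copy. The shControl pairs ran from 1.97 to 4.03. The pairs of shGXYLT2 replicate 3 with its own group, at 8.65 and 11.1, came near or into the range between groups, 8.69 to 18.9. Genes named are the 10 subunits, GXYLT2, up to 3 risen and 3 fallen members per list by adjusted p (otherwise the 2 most abundant), the 5 genes most like COPS8 by either measure (mean log2 CPM of at least 3), and pseudogenes, divergent transcripts and neighbours of members; other names are marked or serve as markers or overlapping genes. Figures were made with Python 3.11.15 and matplotlib 3.10.9.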

Additional observations from a re-analysis of the deposited data

How the results depend on the processing

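COPS8, chosen for its fall in these same libraries, had log2 fold changes of -1.20 to -1.16 over the 15 alternatives, which is no independent sign of stability, and the median over the 10 subunits stayed between 0.0087 and 0.050. The call of COPS9 was lost in 10 of 15, so the subunits called numbered 1, with 0 higher, under RLE size factors, DESeq2, limma-voom, the replicate block and gene length offsets, and 1 to 2 (0 to 1 higher) with 1 library left out. The ratio of COPS8 shares was 0.454 without gene lengths and 0.442 without COPS7A, COPS7B and COPS9.

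With 1 library left out, 960 to 2347 genes were called (397 to 1038 higher, 563 to 1309 lower), against 1907 from all 6. The counts were 990, 1152 and 960 without shControl replicates 1, 2 and 3. They were 1401, 1551 and 2347 without shGXYLT2 replicates 1, 2 and 3. Of the 82 related genes 5 to 11 were then called (1 to 4 higher, 4 to 7 lower): 5 without shControl replicate 1 or 2, and 7 lower without shGXYLT2 replicate 3; limma-voom and the replicate block gave 2 higher. Upper-quartile factors turned the split of 833 higher and 1074 lower genes into 1024 and 963; the cause was not tested. Same-numbered libraries did not deviate together (correlations -0.019, -0.21 and -0.26, none of them pairing a library with its closest). Deviations from a mean of 3 libraries are tied to each other, so these correlations cannot exclude a pairing. The column codes of the deposited counts also number some libraries differently from the titles used here. With the replicate block 606 genes were higher and 865 lower. With 3 libraries a group and SEs of 0.0592 to 0.0845 on the log2 scale, small differences among the other 9 subunits were not detectable.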
